A study of Mus musculus with 48 samples.

Results

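Mouse liver RNA-seq counts were examined for 10 enzymes that dispose of amino acid nitrogen: Nags, Cps1, Ass1, Asl and Arg1 of the urea cycle, Gls2 and Glud1, which release ammonia from glutamine and glutamate, and Prodh, Tat and Hal, which begin the breakdown of proline, tyrosine and histidine. The genes were matched by symbol, from a list drawn up by function with earlier results of these data known. Their identifiers are ENSMUSG00000048217 (Nags), ENSMUSG00000025991 (Cps1), ENSMUSG00000076441 (Ass1), ENSMUSG00000025533 (Asl), ENSMUSG00000019987 (Arg1), ENSMUSG00000044005 (Gls2), ENSMUSG00000021794 (Glud1), ENSMUSG00000003526 (Prodh), ENSMUSG00000001670 (Tat) and ENSMUSG00000020017 (Hal). All 10 were found among the 55414 gene identifiers of the count table, and all 10 were among the 15414 genes with enough reads to be tested.

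The urea cycle runs mostly in the hepatocytes around the portal vein and turns ammonia into urea. Nags makes N-acetylglutamate, the activator of carbamoyl phosphate synthetase (Cps1), and both work in the mitochondrion with ornithine transcarbamylase (Otc). Argininosuccinate synthetase (Ass1), argininosuccinate lyase (Asl) and arginase (Arg1) complete the cycle in the cytosol. Ammonia reaches the cycle from liver glutaminase (Gls2) and glutamate dehydrogenase (Glud1). Proline dehydrogenase (Prodh), tyrosine aminotransferase (Tat) and histidine ammonia-lyase (Hal) each start the degradation of an amino acid that can feed gluconeogenesis, and fasting, glucagon and glucocorticoids are known to act on many of these genes.

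The 48 mice, on a C57BL/6 background, came from the FCG model, in which Sry, the testis-determining gene, is deleted from the Y chromosome and, in some mice, supplied as a transgene on an autosome. Mice without the transgene (genotypes XX and XY-) have ovaries (Ov) and mice with it (XX;SryTg and XY-;SryTg) have testes (Te), so that gonad type does not follow the sex chromosomes (XX or XY). Each of the 4 genotypes was studied with its gonads (Intact) and after gonadectomy (GDX) at 75 days of age, with 6 mice and 1 liver library per mouse in each of the 8 groups. All mice received a high-fat diet (60% of calories from fat) that began at 15 to 17 weeks of age. By the labels the diet lasted 11 weeks in intact and 15 weeks in GDX mice, and the study's methods give other durations for both. The state of the gonads, the time on diet, the age at collection and the cohort cannot be told apart wherever GDX mice are set against intact mice. None of the 8 groups ate another diet. By the study's methods, mice were fasted for 6 h before they were killed, except where those methods specify otherwise.

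The libraries held 13071874 to 20045141 reads on genes (median 16577748), and 3 reads, taken here as the limit of detection, equalled 0.150 to 0.230 CPM (counts scaled to a common library size). Sex chromosome genes fitted the label in 48 of 48 libraries. The share of reads mapped outside annotated genes was 3.47% to 6.20% in intact and 8.52% to 11.3% in GDX libraries, without overlap. The share of multimapping reads was 10.7% to 18.9% in intact and 8.59% to 10.8% in GDX libraries, and the part of both shares in the results was not tested. Summed hepatocyte markers ran from 71610 to 162000 CPM in intact and from 88460 to 121800 CPM in GDX mice. Periportal markers, from the zone where the cycle runs, summed to 1705 to 3880 CPM in intact and to 1583 to 3697 CPM in GDX mice. The 5 pancreatic acinar and 4 kidney markers had medians of at most 3 reads. The 3 mice farthest from their groups were all intact (XY Te replicate 5, XX Ov replicates 3 and 6), and values without them are given wherever they end a call. In bulk tissue, fewer cells of a type and less RNA per cell cannot be told apart.

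All 10 genes were well above the limit of detection, and the fewest reads for any of them in any library were 455, for Nags. Levels are given as CPM scaled by the trimmed mean of M-values (TMM). Per kilobase of transcript, and over all 48 mice, Arg1 was the highest with 925 CPM, followed by Ass1 with 832 CPM and Cps1 with 530 CPM. Glud1 (369 CPM per kilobase), Tat (222) and Asl (164) came next. Gls2 (97.2), Hal (55.9), Prodh (52.4) and Nags (18.3 CPM per kilobase) were the lowest. The order was not fixed: per kilobase, Cps1 lay at 397 CPM in intact and 662 CPM in GDX mice, while Arg1 lay at 1108 and 743 CPM. The 10 genes together took 0.745% ± 0.108 (SD, n = 24) of gene reads in intact mice and 0.967% ± 0.147 (SD, n = 24) in GDX mice.

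Across the 8 groups, the group means split by gonadectomy for 5 of the 10 genes, as they did for 51% of all tested genes. For Cps1, Asl and Prodh the 4 GDX groups held the 4 highest means, and for Arg1 and Glud1 they held the 4 lowest. The highest mean of Cps1 was in XX Te GDX mice, with 4143 ± 1114 CPM (SD, n = 6), and the lowest was in XX Te Intact mice, with 2066 ± 747 CPM (SD, n = 6). Prodh ran from 69.3 ± 16.8 CPM in XY Ov Intact to 191 ± 41.6 CPM in XX Te GDX mice (SD, n = 6 each). Glud1 ran from 861 ± 36.9 CPM in XY Ov GDX to 1645 ± 500 CPM in XX Ov Intact mice (SD, n = 6 each). Tat had the smallest ratio of highest to lowest group mean, from 470 ± 83.8 CPM in XY Ov GDX to 592 ± 208 CPM in XY Te GDX mice (SD, n = 6 each). Within the intact groups, and within the GDX groups, none of the 10 genes passed the test between Ov and Te of the same chromosomes or between XX and XY of the same gonad. The lowest adjusted p over those 8 comparisons was 0.108, for Hal in XX against XY Te GDX mice (edgeR's quasi-likelihood test, p-values adjusted by Benjamini-Hochberg across the 15414 tested genes). Of all tested genes, those comparisons called 5.82% and 15.5% (Ov against Te, intact, in XX and XY mice), 0.0454% and 0.026% (the same after GDX), 7.79% and 2.1% (XX against XY, intact, in Ov and Te mice) and 19.1% and 19.4% (the same after GDX).

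**Figure D1:**
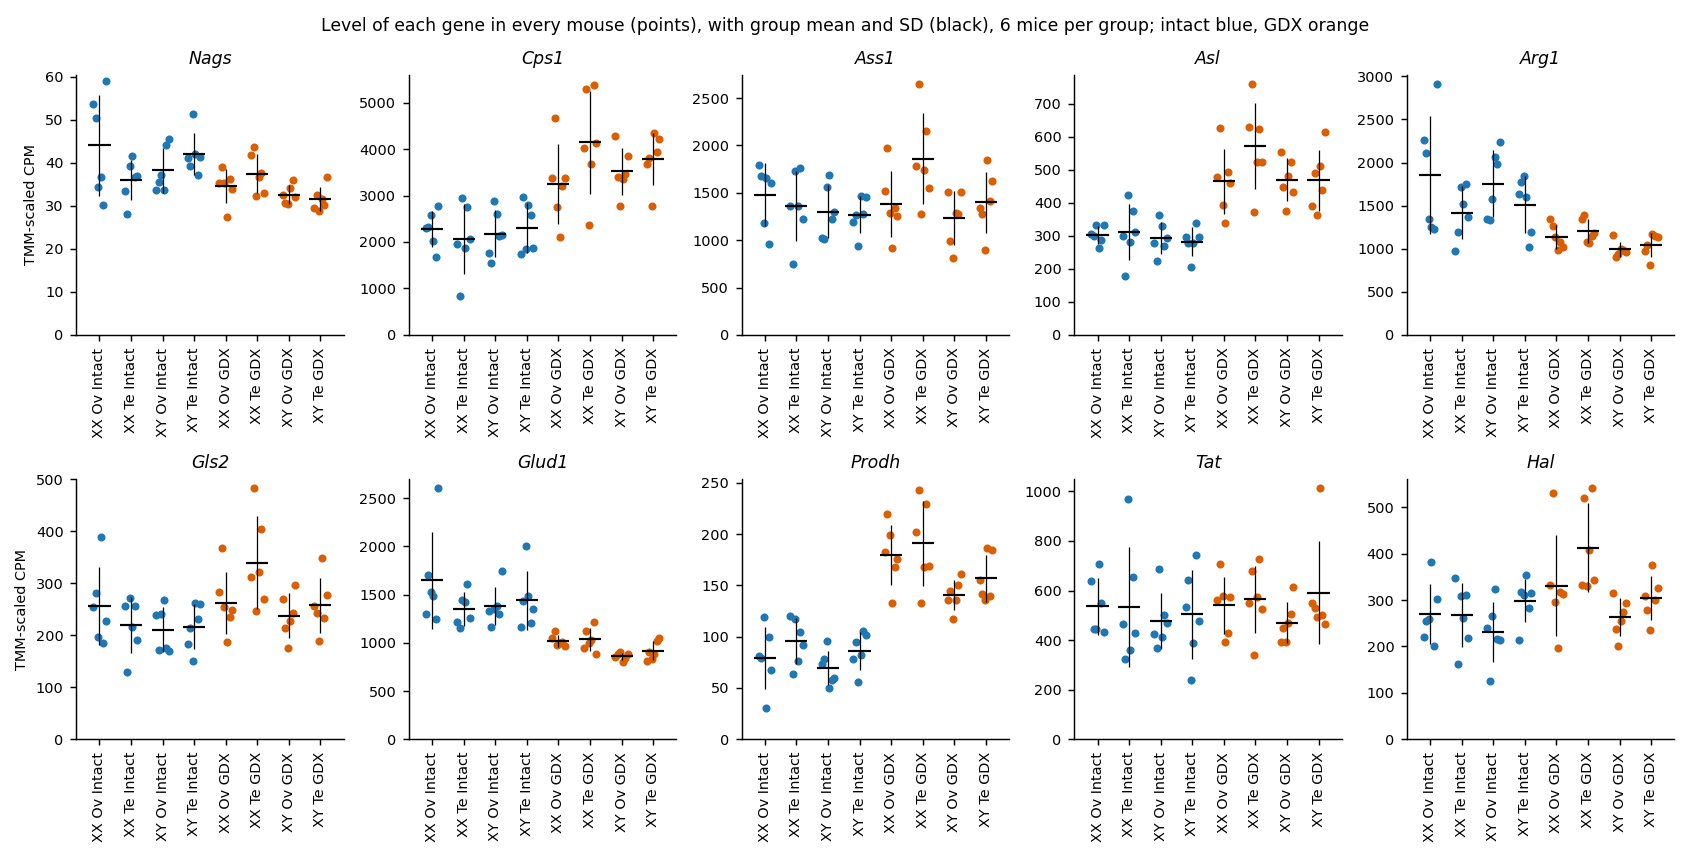
Level of each of the 10 genes (TMM-scaled CPM, linear axis from 0) in every mouse of the 8 groups, with points for mice, horizontal bars for means and vertical bars for SD (6 mice per group). Prodh, Cps1 and Asl sit higher and Glud1 sits lower in the GDX groups (orange) than in the intact groups (blue), while the Tat groups overlap.

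Gonadectomy was compared with intact gonads in Ov mice (the ovariectomy effect) and in Te mice (the castration effect), with XX and XY mice weighted equally and 12 mice on each side. After ovariectomy, Cps1, Asl and Prodh rose and Nags, Arg1 and Glud1 fell, which made 6 of 10 genes at an adjusted p under 0.05. After castration, Cps1, Asl, Gls2, Prodh and Hal rose and Arg1 and Glud1 fell, which made 7 of 10. These shares are near those of the liver as a whole, because 69.4% of all tested genes passed for ovariectomy (36% higher and 33.4% lower) and 63.3% for castration (33.4% higher and 29.9% lower). Each gene is therefore described below by the size of its difference and by the overlap of its groups. The median log2 difference of all tested genes was 0.06 for ovariectomy and 0.07 for castration, against 0.05 and 0.31 for the 10 genes. With library totals in place of TMM, the median of all genes moved to 0.27 in both effects, and the share of calls that were higher moved from 51.9% to 66.1% for ovariectomy and from 52.7% to 69.4% for castration. Among the 10 genes that scaling gave 5 rises and 2 falls for ovariectomy, and 6 rises and 1 fall for castration. Of 7 hepatocyte markers 2 rose and 3 fell after ovariectomy, and 2 rose and 2 fell after castration. Of 8 pericentral markers 3 rose in each comparison, and of 7 periportal markers 2 rose and 2 fell after ovariectomy and 1 rose after castration. After ovariectomy 4 of 6 lymphocyte, 3 of 7 macrophage and 3 of 5 neutrophil markers fell, 1 macrophage and 1 neutrophil marker rose, and of 5 stellate markers 3 rose and 1 fell. After castration 3 of 5 stellate and 1 of 6 lymphocyte markers rose, of 7 macrophage markers 3 rose and 2 fell, and of 5 neutrophil markers 1 rose and 2 fell. Of 5 biliary markers 3 rose after ovariectomy, and 2 rose and 1 fell after castration. Of 5 endothelial markers 1 rose and 1 fell after ovariectomy, and 2 rose and 1 fell after castration. Summed macrophage markers ran from 242 to 1354 CPM in intact and from 147 to 1073 CPM in GDX mice, and stellate markers from 237 to 492 and from 208 to 664 CPM. The part of these markers in the members' values was not tested.

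Cps1, the entry enzyme of the cycle, was the most abundant of the 10 genes by reads. In Ov mice it had a lowest, median and highest level of 1539, 2231 and 2891 CPM when intact and of 2103, 3381 and 4672 CPM after GDX. The ranges overlapped, with 9 of 12 GDX mice above all 12 intact mice. Mean Cps1 rose from 2229 to 3385 CPM (log2 difference 0.60 ± 0.15 SE, adjusted p = 0.000365, edgeR). In Te mice, Cps1 had a lowest, median and highest level of 835.9, 2004 and 2962 CPM when intact and of 2365, 3976 and 5376 CPM after GDX. Here 10 of 12 GDX mice lay above every intact mouse. Mean Cps1 rose here from 2183 to 3968 CPM (log2 difference 0.86 ± 0.15 SE, adjusted p = 3.16e-06, edgeR). With offsets for GC content and transcript length, an alternative chosen after seeing the data, the ovariectomy difference of Cps1 was 0.23 (adjusted p = 0.219, edgeR).

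Nags, which makes the activator of Cps1, went the other way. Its level in Ov mice was 30.32, 37.08 and 59.0 CPM (lowest, median, highest) when intact and 27.53, 34.13 and 39.18 CPM after GDX. The groups overlapped, and 5 of the 12 intact mice were above every GDX mouse. The mean fell from 41.2 to 33.6 CPM (log2 difference -0.29 ± 0.08 SE, adjusted p = 0.00244, edgeR). This call was lost in 2 settings: with library totals the difference was -0.05 (adjusted p = 0.433, edgeR), and with 1 surrogate variable it was -0.06 (adjusted p = 0.435, edgeR). In Te mice Nags averaged 39.1 CPM when intact and 34.6 CPM after GDX, a log2 difference of -0.18 ± 0.08 SE that missed the threshold (adjusted p = 0.0613, edgeR). It passed with only the groups compared (-0.17, adjusted p = 0.0335, edgeR), with the GC and length offsets (-0.32, adjusted p = 0.0071, edgeR), without the 3 farthest mice (-0.21, adjusted p = 0.0265, edgeR) and in 9 of the 48 fits that left out 1 mouse, and it was 0.03 with library totals (adjusted p = 0.665, edgeR).

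Otc, the X-linked enzyme that joins carbamoyl phosphate to ornithine, is not among the 10 genes but lies between Cps1 and Ass1 in the cycle. It fell with Nags: the mean went from 758 to 427 CPM in Ov mice (log2 difference -0.83 ± 0.15 SE, adjusted p = 4.9e-06, edgeR). In Te mice it went from 621 to 461 CPM (log2 difference -0.44 ± 0.15 SE, adjusted p = 0.00815, edgeR), and that call was lost with library totals (-0.23, adjusted p = 0.0665) and with the GC and length offsets (-0.23, adjusted p = 0.0921). With 1 surrogate variable both Otc differences were smaller, -0.30 for ovariectomy and -0.22 for castration, and still passed.

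Ass1 did not pass in either comparison. Its mean was 1390 CPM in intact and 1307 CPM in GDX Ov mice, with a log2 difference of -0.09 (95% confidence interval -0.37 to 0.19). In Te mice it was 1316 CPM when intact and 1629 CPM after GDX, with a difference of 0.29 ± 0.14 SE (95% confidence interval 0.02 to 0.57, adjusted p = 0.0597, edgeR). This value sits at the threshold, and library totals put it past (0.49, adjusted p = 0.00133, edgeR), as did 4 other settings.

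Asl, which releases fumarate and arginine, rose in both comparisons. In Ov mice it had a lowest, median and highest level of 222.8, 295.3 and 362.4 CPM when intact and of 338.9, 468.3 and 626.3 CPM after GDX. All but 1 of the 12 GDX mice exceeded every intact mouse. Mean Asl rose from 298 to 467 CPM (log2 difference 0.65 ± 0.11 SE, adjusted p = 3.54e-06, edgeR). In Te mice the lowest, median and highest levels were 178.8, 295.5 and 424.7 CPM when intact and 361.5, 516.9 and 758.7 CPM after GDX, with 9 of 12 GDX mice above all intact mice. The mean rose from 297 to 520 CPM (log2 difference 0.80 ± 0.11 SE, adjusted p = 1.41e-07, edgeR).

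Arg1, which splits arginine into urea and ornithine, fell in both comparisons. Intact Ov mice held 1233, 1778 and 2916 CPM (lowest, median, highest) and GDX Ov mice held 908.3, 1011 and 1344 CPM. Of the 12 GDX mice, 10 were below every intact mouse. The mean fell from 1805 to 1066 CPM (log2 difference -0.76 ± 0.12 SE, adjusted p = 5.76e-07, edgeR). Library totals gave -0.51, 1 surrogate variable -0.36 and the GC and length offsets -0.27, and all 3 passed. In Te mice Arg1 held 969.0, 1565 and 1844 CPM when intact and 809.9, 1144 and 1391 CPM after GDX. The overlap was wider here, with 2 of 12 GDX mice below every intact mouse. The mean fell from 1466 to 1126 CPM (log2 difference -0.38 ± 0.12 SE, adjusted p = 0.00545, edgeR). That call was lost with library totals (-0.17, adjusted p = 0.0873, edgeR) and with the GC and length offsets (-0.11, adjusted p = 0.298, edgeR).

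Of the ammonia-releasing enzymes, Glud1 fell in both comparisons and Gls2 passed in Te mice. Glud1, which deaminates glutamate, was the gene whose Ov groups did not overlap: intact Ov mice held 1159, 1365 and 2609 CPM (lowest, median, highest) and GDX Ov mice held 805.5, 934.0 and 1118 CPM. Every GDX mouse of those 12 was below every intact mouse, as was the case for 8.06% of all tested genes. The mean fell from 1511 to 940 CPM (log2 difference -0.68 ± 0.09 SE, adjusted p = 1.71e-08, edgeR). Te mice held 1150, 1386 and 2008 CPM of Glud1 when intact and 816.1, 972.8 and 1217 CPM after GDX. All but 1 of the 12 GDX mice were below every intact mouse. The mean fell from 1397 to 977 CPM (log2 difference -0.52 ± 0.09 SE, adjusted p = 5.38e-06, edgeR), and library totals reduced it to -0.31, still past the threshold. Reads of Glud1 could be shared with its processed pseudogene, so its level carries that uncertainty.

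Gls2, which makes glutamate from glutamine, had a mean of 233 CPM in intact and 250 CPM in GDX Ov mice, a log2 difference of 0.11 (95% confidence interval -0.16 to 0.37) that did not pass. In Te mice it held 129.9, 223.6 and 271.7 CPM (lowest, median, highest) when intact and 189.7, 273.1 and 483.3 CPM after GDX. The GDX mice divided evenly, 6 of 12 above all intact mice. The mean rose from 218 to 299 CPM (log2 difference 0.44 ± 0.13 SE, adjusted p = 0.00404, edgeR), which became 0.27 (adjusted p = 0.101) with the GC and length offsets. The castration and ovariectomy differences of Gls2 were not shown to differ (difference 0.33, 95% confidence interval -0.05 to 0.71, adjusted p = 0.273, edgeR).

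Prodh, the mitochondrial enzyme that opens proline degradation, showed the largest log2 difference of the 10 genes in both comparisons. Intact Ov mice held 30.39, 75.91 and 119.0 CPM (lowest, median, highest) and GDX Ov mice held 117.4, 155.7 and 219.8 CPM. A lone GDX mouse fell inside the intact range, and the other 11 were above it. Mean Prodh rose from 74.4 to 160 CPM (log2 difference 1.10 ± 0.14 SE, adjusted p = 7.5e-09, edgeR). In Te mice Prodh held 55.39, 93.45 and 120.6 CPM when intact and 133.4, 168.7 and 243.4 CPM after GDX. All 12 GDX mice lay above all 12 intact mice, a separation in that direction seen for 2.54% of all tested genes. The mean rose from 91.0 to 174 CPM (log2 difference 0.93 ± 0.14 SE, adjusted p = 3.87e-07, edgeR).

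Of Tat and Hal, the other catabolic enzymes, only Hal passed, and only in Te mice. Tat averaged 506 CPM in both intact and GDX Ov mice (log2 difference -0.00, 95% confidence interval -0.33 to 0.33). In Te mice Tat averaged 519 CPM when intact and 579 CPM after GDX (difference 0.16, 95% confidence interval -0.17 to 0.49). Neither passed, and both intervals still allow changes larger in size than that of Nags in either comparison. Hal averaged 250 CPM in intact and 297 CPM in GDX Ov mice (difference 0.24, 95% confidence interval -0.03 to 0.52), which did not pass. In Te mice its mean rose from 284 to 358 CPM (difference 0.32 ± 0.14 SE, adjusted p = 0.0378, edgeR). This call is the least stable of the 7: it was lost without a filter on low counts (0.29, adjusted p = 0.0864), with the GC and length offsets (0.07, adjusted p = 0.712) and without the 3 mice farthest from their groups (0.30, adjusted p = 0.0588, edgeR), and it passed in 37 of the 48 fits that left out 1 mouse.

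**Figure D2:**
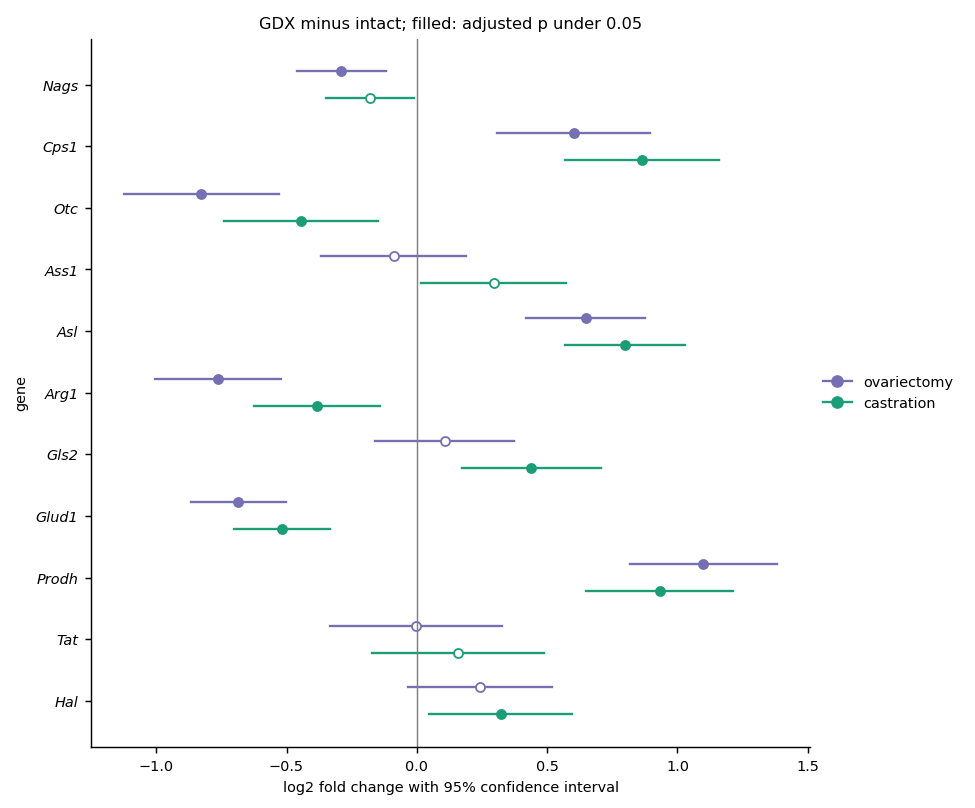
Log2 difference (GDX minus intact, x axis) with its 95% confidence interval for the 10 genes and Otc, in Ov mice (ovariectomy, purple) and Te mice (castration, green), with filled points for an adjusted p under 0.05. Prodh, Cps1 and Asl lie to the right of 0 and Glud1, Arg1 and Otc to the left in both comparisons.

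Promoter sequence from RefSeq, on the build GRCm38.p6, was found for 6 of the 10 genes (Nags, Ass1, Glud1, Prodh, Tat and Hal). The files' counts were made on another build, GRCm39. Shown are the last 100 bases before the start of transcription for the gene with the largest rise (Prodh), the gene with the largest fall of these 6 (Glud1) and the pair whose windows held a CCAAT box (Tat and Hal), with the matches to the searched motifs in capitals.
Prodh, chr16:18089191-18089290, minus strand: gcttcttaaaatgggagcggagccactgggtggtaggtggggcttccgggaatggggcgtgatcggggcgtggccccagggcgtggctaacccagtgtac
Glud1, chr14:34310627-34310726, plus strand: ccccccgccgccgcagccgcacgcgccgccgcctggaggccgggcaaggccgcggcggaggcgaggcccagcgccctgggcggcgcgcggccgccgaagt
Tat, chr8:109990336-109990435, plus strand: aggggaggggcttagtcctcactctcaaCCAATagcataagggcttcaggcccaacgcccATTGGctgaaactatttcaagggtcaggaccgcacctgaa
Hal, chr10:93488668-93488767, plus strand: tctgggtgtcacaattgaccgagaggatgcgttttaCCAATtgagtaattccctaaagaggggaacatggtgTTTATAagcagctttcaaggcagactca
The windows differ in base composition: G and C make up 87% of the Glud1 window, 65% for Prodh, 54% for Tat and 44% for Hal. In the table's full windows of 300 bases, searched on both strands, Prodh and Glud1 held none of the 6 motifs. CCAAT, the box bound by NF-Y, was found in 2 of the 6 promoters, Tat and Hal, and in 37.4% of the 32851 promoters of the table. In Hal it starts 64 bases before the start, and a TATAAA match on the minus strand lies 28 bases before it. TATAAA, the TATA box, was found in 13.6% of all promoters. In Tat a CCAAT match lies 72 bases before the start, with matches on the minus strand 40 and 168 bases before it, the last outside the bases shown. TGACG, the core of the cAMP response element, was found in Nags, 31 bases past the start on the minus strand, and in 20.8% of all promoters. The full element TGACGTCA (1.79% of promoters, and overlapping TGACG by construction), the C/EBP motif TTGCGNAA (0.798%) and TGTTCT, a part of the glucocorticoid response element (19.0%), were in none of the 6.

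Ovariectomy and castration were measured on different mice, so their calls can be set side by side. Both, and the 4 sets below, share the differences between GDX and intact mice in diet time, age and cohort. Calls that recur across them cannot tell these apart from the state of the gonads. Cps1, Asl and Prodh rose and Arg1 and Glud1 fell in both, which is 5 of the 10 genes, while 51.1% of all tested genes passed in the same direction in both. Split further by XX and XY, the GDX effect was tested in 4 separate sets of mice, where it called 55.1% (XX Ov), 59.4% (XY Ov), 37.1% (XX Te) and 56.7% (XY Te) of all tested genes. Cps1, Asl and Prodh rose and Glud1 fell in all 4, which is 4 of the 10 genes, against 25.0% of all tested genes. The log2 difference of Prodh ranged from 0.87 ± 0.20 SE in XY Te to 1.17 ± 0.20 SE in XX Ov mice. Cps1 rose least in XX Ov mice (0.51 ± 0.21 SE) and most in XX Te mice, where its mean went from 2066 to 4143 CPM. Asl ranged from 0.62 ± 0.16 SE in XX Ov to 0.87 ± 0.16 SE in XX Te mice. Glud1 ranged from -0.69 ± 0.13 SE in XX Ov to -0.39 ± 0.13 SE in XX Te mice. Arg1 fell in 3 of the 4 sets, and its value in XX Te mice was -0.24 ± 0.17 SE (adjusted p = 0.273, edgeR).

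The castration effects of Nags and Hal were the farthest apart between XX and XY mice. Nags fell in XY Te mice (from 42.1 to 31.6 CPM, log2 difference -0.41 ± 0.12 SE, adjusted p = 0.00316, edgeR) and was 36.1 CPM when intact and 37.5 CPM after GDX in XX Te mice. Hal rose in XX Te mice (from 268 to 412 CPM, log2 difference 0.62 ± 0.19 SE, adjusted p = 0.0114, edgeR) and was 299 CPM when intact and 304 CPM after GDX in XY Te mice. The difference between XX and XY did not pass when tested directly, neither for Nags (0.47 ± 0.17 SE, adjusted p = 0.132, edgeR) nor for Hal (0.60 ± 0.27 SE, adjusted p = 0.284, edgeR), in a comparison where 2.21% of all tested genes passed.

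The castration and ovariectomy effects themselves were then compared. None of the 10 genes passed in edgeR or DESeq2, 5.6% of all tested genes did, and 1 gene, Arg1, had an unadjusted p under 0.05. Arg1 fell by 0.76 on the log2 scale after ovariectomy and by 0.38 after castration, and the difference between them was 0.38 ± 0.17 SE (95% confidence interval 0.04 to 0.72, adjusted p = 0.17, edgeR).

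Ratios of reads between enzymes within a library do not depend on the scaling between libraries, and they were formed for the 15 pairs of the 5 cycle genes and Otc. GC content or transcript length can still enter a ratio where their effects differ between libraries, and the offsets were not applied here. Asl has 55.5% and Arg1 47.7% GC content, and the background of gene pairs given next was not matched on it. In 3 pairs the 24 GDX and 24 intact libraries did not overlap, against 1.6% of the 66430101 pairs of genes with at least 10 reads in every mouse. Asl:Arg1 ran from 0.112 to 0.332 (median 0.183) in intact and from 0.342 to 0.545 (median 0.453) in GDX mice. Otc:Asl ran from 1.17 to 4.09 (median 2.11) in intact and from 0.719 to 1.12 (median 0.923) in GDX mice. Nags:Asl ran from 0.0928 to 0.249 (median 0.140) in intact and from 0.0575 to 0.0904 (median 0.0697) in GDX mice. All 3 pairs contain Asl, so they are not independent of each other. Cps1:Arg1 overlapped, with 20 of 24 GDX mice above all intact mice, and its median went from 1.34 to 3.46. Cps1 and Asl, which rose together, kept their ratio: the median of Cps1:Asl was 7.47 (4.68 to 10.6) in intact and 7.39 (6.21 to 9.40) in GDX mice. A ratio chosen after its values were seen, Prodh:Glud1, ran from 0.0204 to 0.0989 in intact and from 0.130 to 0.216 in GDX mice, without overlap. Such ratios show unequal change in the reads of the partners and do not say which of them changed.

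**Figure D3:**
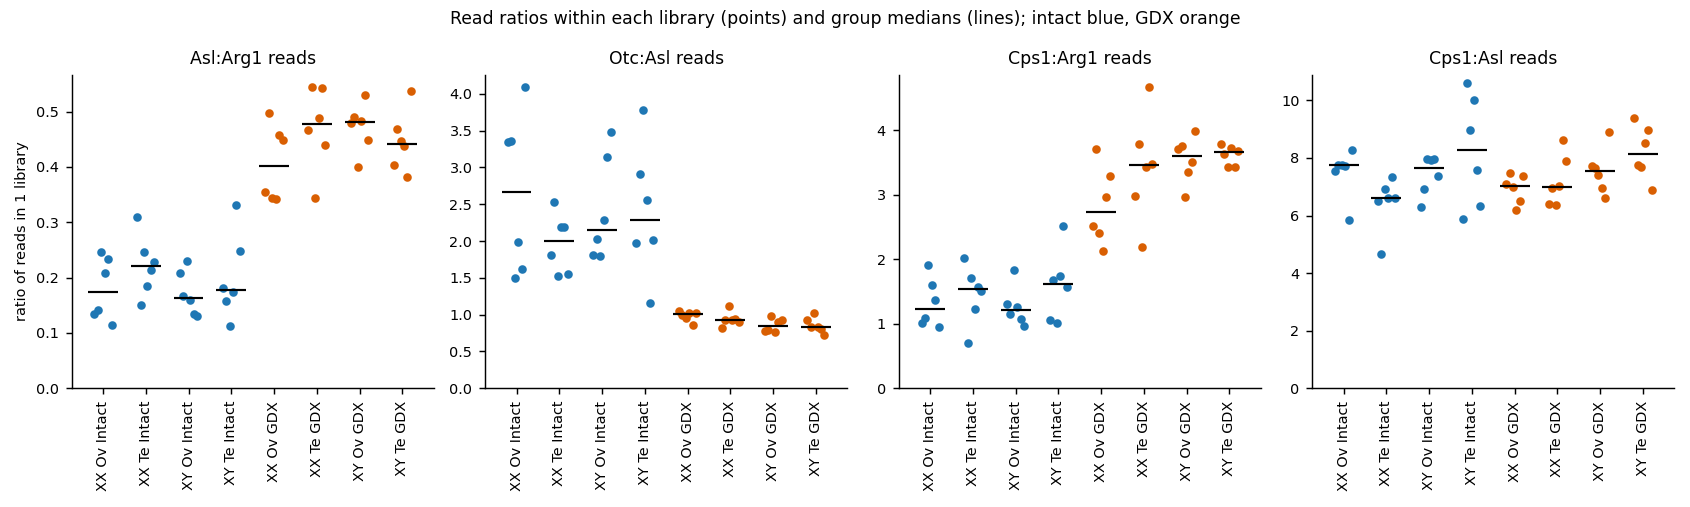
Ratio of reads of 2 genes within each library (points) for the 8 groups, with lines for group medians (6 mice per group, linear axes from 0). All 24 GDX libraries (orange) lie above the 24 intact libraries (blue) for Asl:Arg1 and below them for Otc:Asl, most lie above for Cps1:Arg1, and the groups share a range for Cps1:Asl.

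The gonad type of intact mice (Ov against Te, 12 mice each) made no call among the 10 genes in edgeR or DESeq2, while 25.3% of all tested genes passed in edgeR. Arg1 and Prodh had an unadjusted p under 0.05. Intact Ov mice had 1233, 1778 and 2916 CPM of Arg1 (lowest, median, highest) and intact Te mice 969.0, 1565 and 1844 CPM. Te mice reached down further, and 6 of the 12 Ov mice exceeded the highest Te mouse. The log2 difference of Arg1 was 0.30 ± 0.12 SE (means 1805 and 1466 CPM, adjusted p = 0.0589, edgeR). It moved past the threshold with library totals (adjusted p = 0.0175, edgeR), with a minimum of 10 reads in every mouse (0.0434) and in the set of 47 mice (0.0417). Prodh pointed to Te mice, with means of 74.4 CPM in Ov and 91.0 CPM in Te mice (log2 difference -0.29 ± 0.14 SE, adjusted p = 0.113, edgeR). For Asl the 95% confidence interval, -0.22 to 0.23, and for Glud1 the interval, -0.07 to 0.29, took in only differences smaller than their gonadectomy effects. In the same comparison 5 of 7 macrophage and 5 of 6 lymphocyte markers were higher in Ov mice, and their part in these values was not tested. The share of all calls that were higher in Ov mice was 55.6%, and it moved to 68% with library totals and to 35.6% with the GC and length offsets.

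After gonadectomy, the former gonad type (Ov GDX against Te GDX) left no call among the 10 genes in edgeR or DESeq2, and 0.0908% of all tested genes passed in edgeR. All 10 estimates were below 0, that is lower in Ov GDX mice. The largest was Ass1, with means of 1307 CPM in Ov GDX and 1629 CPM in Te GDX mice (log2 difference -0.31 ± 0.14 SE, unadjusted p = 0.0322, adjusted p = 1, edgeR), the only gene of the 10 with an unadjusted p under 0.05. Since the 10 genes were measured in the same libraries, the shared sign is not 10 separate observations.

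Sex chromosomes were compared as XX against XY over the 4 pairs of groups, 24 mice each. Prodh was the only gene of the 10 that passed, against 36.7% of all tested genes. XX mice held 30.39, 126.6 and 243.4 CPM of Prodh (lowest, median, highest) and XY mice 50.15, 111.6 and 186.4 CPM, so the XY range lay inside the XX range. The means were 136 and 113 CPM (log2 difference 0.24 ± 0.10 SE, adjusted p = 0.0462, edgeR). The call did not hold in 8 settings, among them the DESeq2 test (0.22, adjusted p = 0.0641), library totals (0.13, adjusted p = 0.40) and the fit without the 3 mice farthest from their groups (0.18, adjusted p = 0.15), and it passed in 18 of the 48 fits that left out 1 mouse. Of the 10 estimates, 9 were above 0, with Cps1 the exception at -0.02 (95% confidence interval -0.23 to 0.19). Ass1 (0.22), Gls2 (0.21), Hal (0.21) and Glud1 (0.14) had unadjusted p under 0.05 and adjusted p between 0.0736 and 0.0836 (edgeR). The share of calls that were higher in XX mice was 59.8% over all genes and moved to 28.2% with library totals and to 73.2% with the GC and length offsets.

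Within the intact mice, XX and XY did not differ in any of the 10 genes by edgeR or DESeq2, with no unadjusted p under 0.05, the lowest adjusted p at 0.485 and 10.7% of all tested genes past the threshold. Within the GDX mice Hal passed, against 34.3% of all tested genes. XX GDX mice held 196.5, 332.5 and 540.5 CPM of Hal (lowest, median, highest) and XY GDX mice 201.3, 286.4 and 374.6 CPM, with 4 of 12 XX mice above every XY mouse. The means were 372 and 283 CPM (log2 difference 0.39 ± 0.14 SE, adjusted p = 0.0244, edgeR). The call was lost with library totals (0.20, adjusted p = 0.305), without a filter on low counts (0.31, adjusted p = 0.141), with a minimum of 10 reads in every mouse (0.34, adjusted p = 0.051) and without the 3 farthest mice (0.30, adjusted p = 0.0932, edgeR). The 3 farthest mice are intact and enter this comparison through the shared estimate of spread and the scaling. TMM factors were 1.07 to 1.24 in XY GDX and 0.946 to 1.07 in XX GDX mice, and their part in these differences was not tested beyond the library-total values. The test that the XX against XY difference changed with GDX made no call in edgeR or DESeq2 (lowest adjusted p = 0.43, for Hal, 0.35 ± 0.19 SE), had no gene of the 10 with an unadjusted p under 0.05, and called 2.12% of all tested genes.

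**Figure D4:**
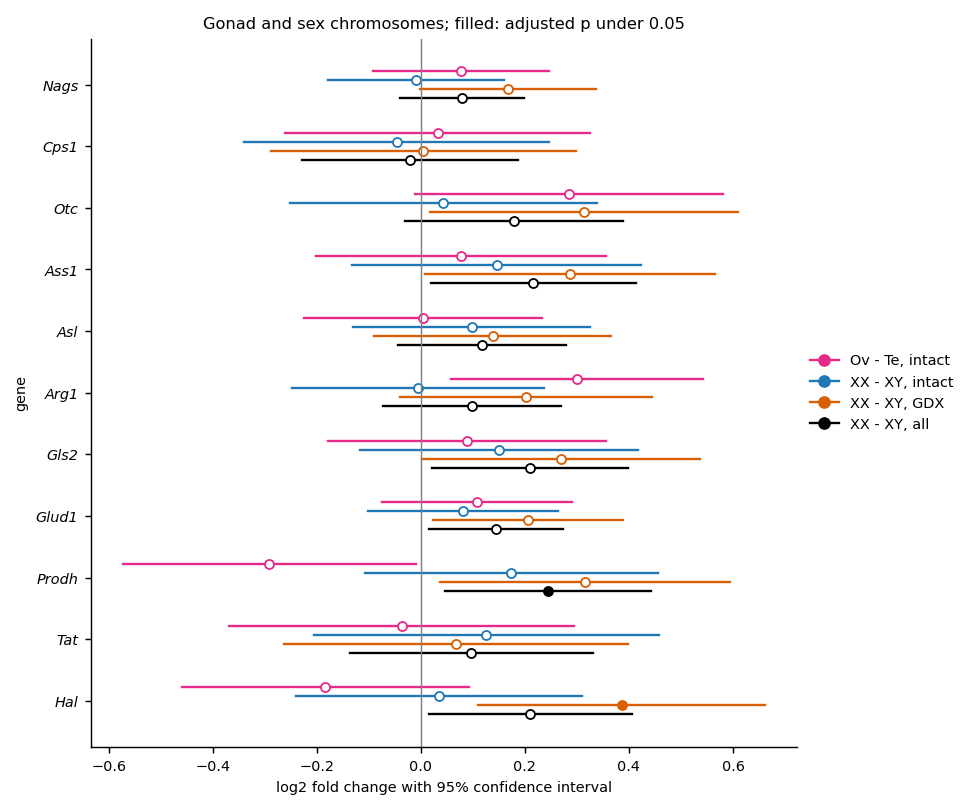
Log2 difference (x axis) with its 95% confidence interval for the 10 genes and Otc, for Ov minus Te in intact mice (pink) and for XX minus XY in intact (blue), GDX (orange) and all mice (black), with filled points for an adjusted p under 0.05. Only Prodh over all mice and Hal in GDX mice are filled, and most XX minus XY points lie between 0 and 0.4.

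Other genes of amino acid and nitrogen metabolism were taken from fixed lists and counted in the same fits. The 8 tested partners of the cycle were Otc, Glul, transporters, carbonic anhydrase 5a and other enzymes. Of these, 4 fell and none rose after ovariectomy (50% called, against 69.4% of all tested genes). After castration 4 fell and 2 rose (75% called, against 63.3% of all tested genes). Otc, described above, is among the falls in both. Slc25a15, the carrier that brings ornithine into the mitochondrion, fell from 415 to 237 CPM after ovariectomy (log2 difference -0.81 ± 0.11 SE, adjusted p = 3.67e-08, edgeR). After castration it fell from 365 to 263 CPM (log2 difference -0.48 ± 0.11 SE, adjusted p = 0.000261, edgeR). Glul, glutamine synthetase of the pericentral hepatocytes, passed in none of the 4 comparisons, with 1216 CPM in intact and 1500 CPM in GDX Ov mice (adjusted p = 0.0604, edgeR).

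Enzymes that share a pathway with Tat, Hal and Prodh were counted next, and no difference between these short lists was tested. Shares called after ovariectomy and castration were 71.4% and 71.4% for tyrosine and phenylalanine, 66.7% and 66.7% for histidine, and 66.7% and 100% for proline. Over all tested genes the shares were 69.4% and 63.3%. After Tat, of 7 tested genes for tyrosine and phenylalanine breakdown, 1 rose and 4 fell after ovariectomy and 2 rose and 3 fell after castration. Gstz1, the maleylacetoacetate isomerase, fell from 1644 to 685 CPM after ovariectomy (log2 difference -1.27 ± 0.15 SE, adjusted p = 2.78e-09, edgeR). Pcbd1, which recycles the cofactor of phenylalanine hydroxylase, fell by 0.89 on the log2 scale after ovariectomy, and its value was 0.06 (adjusted p = 0.429, edgeR) with the GC and length offsets. After Hal, of 3 histidine enzymes, 2 rose in each comparison. Uroc1, urocanase, rose by 0.38 ± 0.07 SE after ovariectomy (adjusted p = 1.7e-05) and by 0.38 ± 0.07 SE after castration (adjusted p = 2.43e-05, edgeR), and neither passed with the GC and length offsets. After Prodh, of 3 proline and hydroxyproline enzymes, Prodh2 rose (0.28 and 0.34) and Hoga1 fell (-1.03 and -0.75) in ovariectomy and castration, in that order.

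The shares called in the lists that follow are read against the 69.4% of all tested genes for ovariectomy and the 63.3% for castration, and most lie near or under them. For tryptophan breakdown, of 6 tested genes, 4 fell and 1 rose after ovariectomy, and 5 fell and 1 rose after castration. Tdo2, the enzyme that opens it, fell from 2171 to 957 CPM after ovariectomy (log2 difference -1.19 ± 0.16 SE, adjusted p = 1.15e-08, edgeR). After castration Tdo2 fell from 2762 to 1083 CPM (log2 difference -1.36 ± 0.16 SE, adjusted p = 1.85e-09, edgeR). The lysine list had 2 rises among 4 genes after ovariectomy and 1 after castration, with Dhtkd1 at 0.85 and 0.60. For serine, glycine and threonine, 5 of 8 genes fell and none rose after ovariectomy, with Gcsh at -0.75, and 2 fell and 1 rose after castration. The transaminases had 3 rises and 1 fall among 7 genes after ovariectomy and 2 of each after castration. Branched-chain amino acid genes had 4 rises and 7 falls among 17 after ovariectomy, and 3 rises and 5 falls after castration. Of 7 tested amino acid transporters, Slc38a3, a glutamine carrier of hepatocytes, rose after ovariectomy (0.54) and after castration (0.47), and no other passed. Over the 63 tested enzymes and carriers other than the 10 genes, 14 rose and 26 fell after ovariectomy, and 16 rose and 22 fell after castration. This direction rests on the scaling, because library totals gave 30 rises and 15 falls for ovariectomy, and 31 rises and 13 falls for castration.

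Of 13 regulators tied to these genes, 5 rose and 4 fell after ovariectomy (69.2% called, against 69.4% of all tested genes), with Foxo1 at 0.57 and the glucagon receptor Gcgr at -0.35. After castration 4 rose and 2 fell (46.2% called, against 63.3% of all tested genes), with the coactivator Ppargc1a at 0.63 and Gcgr at -0.35. With the GC and length offsets Foxo1 in ovariectomy was 0.17 (adjusted p = 0.111, edgeR), and with library totals Gcgr in ovariectomy was -0.13 (adjusted p = 0.0695, edgeR).

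In the XX against XY comparison a larger share of the other enzymes and carriers passed than of the 10 genes. That contrast was not tested, and the median log2 difference of the 10 genes was 0.13. Outside the enzymes, 1 of 7 tested amino acid transporters (14.3%) and 8 of 13 regulators (61.5%) passed. Of the 63 other enzymes and carriers, 37 were higher and 1 was lower in XX mice, 60.3% called against 36.7% of all tested genes, with a median log2 difference of 0.21 against 0.05 for all genes. The counts were 20 higher and 3 lower with library totals, and 52 higher and 1 lower with the GC and length offsets. Branched-chain amino acid genes gave 12 of 17 higher, among them Mccc2 (0.31) and Mmut (0.29). Gldc, of the glycine cleavage system, was higher in XX mice (148 against 95.8 CPM, log2 difference 0.65 ± 0.10 SE, adjusted p = 4.9e-07, edgeR), as was Gpt2, an alanine aminotransferase (571 against 436 CPM, 0.37 ± 0.06 SE, adjusted p = 4.81e-07, edgeR). The 3 histidine enzymes downstream of Hal were all higher in XX mice, led by Uroc1 (0.32 ± 0.05 SE, adjusted p = 3.33e-06, edgeR). Sirt5, a mitochondrial deacylase that acts on Cps1, was higher in XX mice too (0.37 ± 0.05 SE, adjusted p = 3.32e-08, edgeR). Markers of other cells moved in the same comparison, and their part in the enzyme differences was not tested. In XX mice 6 of 7 macrophage, 5 of 5 neutrophil and 5 of 6 lymphocyte markers were lower, and 5 of 7 periportal markers were higher and 1 was lower. Summed macrophage markers ran from 147 to 839 CPM in XX and from 317 to 1354 CPM in XY mice, neutrophil markers from 2.32 to 35.9 and from 6.77 to 798 CPM, lymphocyte markers from 1.92 to 12.1 and from 4.40 to 42.4 CPM, and periportal markers from 2339 to 3880 and from 1583 to 3380 CPM.

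Gonad type in intact mice gave 5 higher and 9 lower among the same 63 genes in Ov against Te mice, close to the 25.3% of all genes in total. Kyat1, a kynurenine aminotransferase, was lower in Ov mice (49.7 against 77.8 CPM, -0.63 ± 0.12 SE, adjusted p = 0.000149, edgeR). Aldh7a1, of lysine breakdown, was lower as well (299 against 436 CPM, -0.55 ± 0.09 SE, adjusted p = 6.4e-06, edgeR). Agxt was higher (205 against 139 CPM, 0.56 ± 0.13 SE, adjusted p = 0.00148, edgeR).

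**Figure D5:**
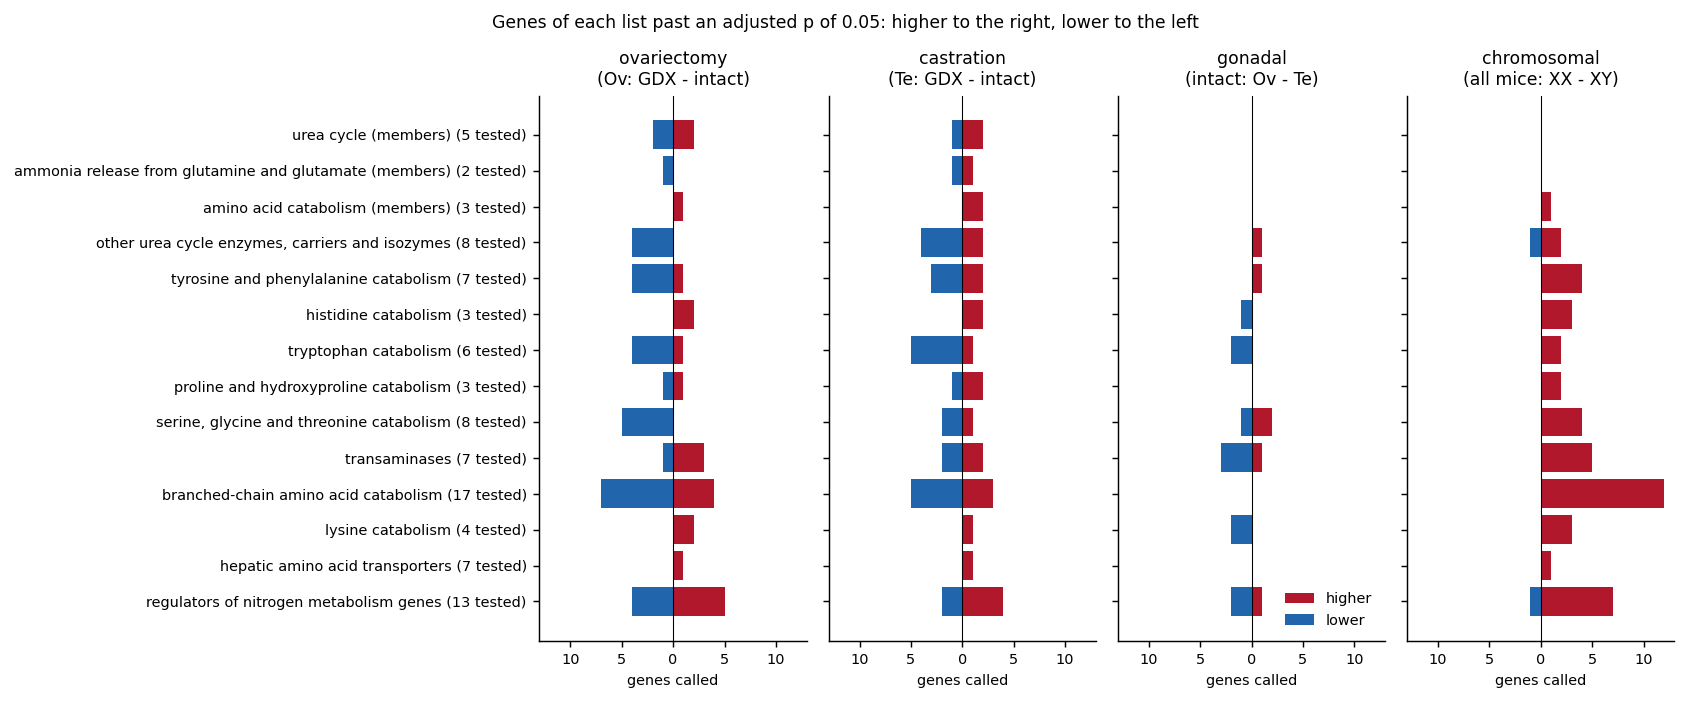
Number of genes past an adjusted p of 0.05 in each list (rows, with the number tested), higher to the right in red and lower to the left in blue, for ovariectomy, castration, gonad type in intact mice (Ov minus Te) and sex chromosomes (XX minus XY). Bars point both ways after gonadectomy, and for the sex chromosomes nearly all point to higher values in XX mice.

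Between mice of the same group, the spread of the 10 genes lay on both sides of the median of all tested genes. Those genes were not matched to the 10 on level. The SD of log2 CPM within groups ran from 0.206 for Nags to 0.413 for Tat, against a median of 0.329 over all tested genes. For 8 of the 10 genes it was larger in intact than in GDX mice (all but Ass1 and Asl), as it was for 88.4% of all tested genes. After the group means were removed, the mean of the 5 cycle genes was most like Dbt (Pearson's r = 0.913, Spearman's rho = 0.900), Paics (r = 0.904, rho = 0.886), Ahcy (r = 0.893, rho = 0.878), Hpd (r = 0.888, rho = 0.837) and Aass (r = 0.880, rho = 0.869) over the 48 mice. These values are given as a description, since all genes of a library share its depth and composition. Among the other members, Hal (r = 0.664) and Gls2 (r = 0.642) followed the cycle genes most and Prodh least (r = 0.341). Prodh followed them in GDX mice (r = 0.852) and hardly in intact mice (r = 0.121). Glul ran slightly against the cycle (r = -0.204).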

How the data were processed

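Liver RNA of 48 mice was sequenced as single 50-base reads after poly(A) selection on an Illumina instrument. Per the labels and the study's methods, the authors aligned reads to GRCm39 with STAR (2.7.10a) and deposited 1 table of raw counts per gene, not normalized, together with the unmapped, multimapping and ambiguous totals, which were left out of library sizes. DESeq2 (1.36.0) is among the tools that the submitters' processing notes name. The annotation release, strand setting and trimming are not given in the sources used here. Symbols were matched for 31020 of 55414 identifiers (56%).

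Each mouse was placed in its group by its labels, 6 in each of 8 groups. Counts were scaled by TMM, filtered with filterByExpr and fitted for all 48 mice together, 1 mean per group, with edgeR's robust quasi-likelihood test (edgeR 4.0.16, R 4.3.3), and p-values were adjusted by Benjamini-Hochberg over 15414 genes, with a threshold of 0.05. Standard errors were derived from the quasi-likelihood F statistic, and 95% intervals from the t quantile. p-values measure the spread between these mice. Depth was 13071874 to 20045141 reads on genes, so counting error was small beside the spread between mice. Levels per kilobase used transcript lengths, and the GC and length offsets (loess, span 0.3) covered 13077 genes (84.8%). The code was tested on simulated data. Alternatives were DESeq2 (1.42.0) size factors and Wald test, library totals, no filter, at least 10 reads in every mouse, 47 mice (without XX Te Intact replicate 5, which is not among the mice the study lists with its figures), 1 surrogate variable (sva 3.50.0), only the groups compared, a fold of 1.5, and leaving out each mouse. GC and length offsets and the fit without the 3 mice farthest from their groups were chosen after seeing the data. Figures and summaries used Python 3.11.15, numpy 2.4.6, pandas 2.3.3, scipy 1.17.1 and matplotlib 3.10.9.

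The 10 genes and the pathway and marker lists were chosen with earlier results of these data known. All 10 genes are described. Of the other lists, up to 2 genes per list and comparison are named, by the lowest p, beside Otc and Glul. The ratio Prodh:Glud1 was chosen after its values were seen. Slc25a2, Arg2, Tdh and Slc7a9 had too few reads to be tested, and Rhbg was not matched. The result of 1 listed gene is not reported here.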

Additional observations from a re-analysis of the deposited data

Results flagged for a closer look

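For each of the 10 genes and 8 groups, the highest and the lowest mouse were compared with the others by Dixon's ratio, the gap to the nearest mouse divided by the range of the group (critical value 0.625 for 6 mice). Of 80 combinations, 4 exceeded it, which is about the 1 in 20 that chance gives. In XX Ov Intact mice, replicate 6 had 2609 CPM of Glud1 and the next mouse 1706 CPM (ratio 0.663). That mouse is among the 3 farthest from their groups, and the fall of Glud1 after ovariectomy passed without them (log2 difference -0.59). In XY Te Intact mice, replicate 3 had 51.41 CPM of Nags and the next mouse 42.2 CPM (ratio 0.648). In XY Ov GDX mice, replicate 1 had 1155 CPM of Arg1 and the next mouse 996.5 CPM (ratio 0.643). In XY Te GDX mice, replicate 4 had 1012 CPM of Tat and the next mouse 551 CPM (ratio 0.844).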

How the results depend on the processing

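The number of the 10 genes past the threshold was 6 for ovariectomy, and 5 to 7 over the alternatives. For castration it was 7, and 6 to 8 except under a required fold of 1.5, which left 3. For XX against XY over all mice the single call was lost (0 genes) with DESeq2 size factors, the DESeq2 Wald test, library totals, no filter, at least 10 reads in every mouse, the 47 mice, a fold of 1.5 and without the 3 farthest mice, and it became 3 with 1 surrogate variable and 4 with the GC and length offsets. Within GDX mice the single XX against XY call became 0 with library totals, no filter, at least 10 reads, a fold of 1.5 and without the 3 farthest mice, 3 with 1 surrogate variable and with only the groups compared, and 5 with the offsets. For gonad type in intact mice the count went from 0 to 1 (Arg1) with library totals, at least 10 reads and the 47 mice. Leaving out each mouse in turn gave 6 to 7 genes for ovariectomy, 6 to 8 for castration, 0 to 4 for XX against XY, 0 to 2 for XX against XY in GDX mice and 0 to 2 for gonad type. No alternative gave a call for XX against XY in intact mice, the former gonad, castration against ovariectomy, or the change of XX against XY with GDX, where a fit could be made. The cause of these shifts was not tested. A fit of only the groups compared was not run for XX against XY over all mice and for the last 2 of these, because all groups enter. Of single-gene values, 5055 kept their side of the threshold, 68 gained and 67 lost a call, and none changed sign with a call. No paired analysis was possible because each mouse carries its own identifier and the groups share no replicate numbers that mark a litter, a batch or a day.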

Other observations

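Some pairs of the 10 genes and Otc varied together between mice of the same group, and others did not. After the group means were removed, the highest Pearson's r of log2 levels over the 48 mice were 0.879 (Ass1 and Gls2), 0.862 (Arg1 and Otc) and 0.858 (Cps1 and Asl). At the other end, r was -0.144 for Glud1 and Tat, -0.097 for Glud1 and Prodh and 0.038 for Arg1 and Tat. These values are a description of libraries that share depth and composition. The SD of Arg1 within groups was 0.389 on the log2 scale in intact and 0.166 in GDX mice, and that of Glud1 was 0.274 and 0.123. The median of Gls2:Glud1 reads was 0.158 in intact and 0.276 in GDX mice, with overlapping ranges (0.0748 to 0.262 and 0.188 to 0.429).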
